A study of Mus musculus with 8 samples.

Results

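The replication-dependent histone genes of the mouse encode the linker histone H1 and the core histones H2A, H2B, H3 and H4 in many near-identical copies. They were taken as the rows of the deposited expression table whose symbol names a gene of the clusters Hist1 to Hist4 or carries a newer name of these classes. The rule found 59 of 21765 rows, all under older symbols such as Hist1h4d: 6 H1, 14 H2A, 17 H2B, 10 H3 and 12 H4 genes. Hist1 holds 49 of them on chromosome 13, Hist2 6 on chromosome 3, Hist3 3 on chromosome 11 and Hist4 1 on chromosome 6 (GENCODE M21, GRCm38). Of the 59 genes, 58 passed the filter on low values (a mean of at least 1 TPM, the number of transcripts scaled to the same total in every library), and Hist1h2aa did not.

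The libraries come from the main olfactory epithelium, the tissue of the nose that holds the olfactory sensory neurons and the basal cells that renew them. Lysates of tissue treated with 100 µg/mL cycloheximide, which holds ribosomes on their messages, were separated on sucrose gradients into about 42 fractions of 350 µL. RNA was taken from 50 µL of each of fractions 27 to 34, pooled as early polysomes, and of fractions 35 to 42, pooled as late polysomes, which lie in the denser part of the gradient. The WT mice had the genotype Mex3a flox/flox or Mex3a flox/+ and no Cre, and the conditional knockout (cKO) mice had Mex3a flox/flox together with Cre, so every group carried at least 1 floxed allele. Both genotypes were sampled in both fractions, which makes 4 groups of 2 libraries, and by the library names the 2 fractions of a genotype and replicate number came from 1 lysate. No age is given, and no label says whether lysates of a genotype came from separate animals or from pools, so p-values measure only the spread between these libraries. The early WT library of replicate 2 carries the genotype of the cKO group in 1 label, against its title and library name, and was kept as WT.

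As background, replication-dependent histone messages are made in S phase, when new DNA has to be packed into nucleosomes, and are degraded when replication stops. They end in a conserved stem-loop in place of the poly(A) tail of other messages; the stem-loop is bound by the stem-loop binding protein, Slbp, which takes part in the processing, translation and decay of the message. Their reading frames are short and lack introns. In the olfactory epithelium the dividing cells are mainly basal progenitors, while 1 member, Hist2h2be, is known as an H2B variant gene of mature olfactory sensory neurons. The libraries were made from total RNA, so the reads need not depend on a poly(A) tail.

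The stem-loop sets these messages apart, so its forms are shown first. A search of GENCODE M21 transcripts on the transcript strand for a pattern of 16 letters (GG, any 2 letters, CTT, any letter, T, any letter, AG, any 2 letters, CC) found it in 39 of 59 members, against 201 of 55341 gene names in the annotation (0.363%). Capitals mark the 6 bases on each side that pair into the stem, and the 4 lower-case bases are the loop. The forms, each with 1 gene that carries it, were:
Hist1h1c: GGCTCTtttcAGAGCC
Hist1h3e: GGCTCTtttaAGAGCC
Hist2h2ac: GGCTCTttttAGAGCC
Hist1h3g: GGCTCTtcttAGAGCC
Hist1h4d: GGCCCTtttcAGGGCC
Hist2h4: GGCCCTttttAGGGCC
Hist1h4a: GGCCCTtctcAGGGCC
Hist1h4j: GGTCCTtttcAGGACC
The form of Hist1h1c was the most frequent, in 20 members (3 H1, 6 H2A, 8 H2B and 3 H3), and that of Hist1h3e stood in 6 (1 H1, 2 H2B and 3 H3). Those of Hist2h2ac and Hist1h3g stood in 1 member each. The other 4 forms stood in H4 genes alone among the 39 members: that of Hist1h4d in 6, those of Hist2h4 and Hist1h4j in 2 each and that of Hist1h4a in 1. No H4 gene carried a form of the other classes. In the 3′ untranslated region the letters of Hist1h4d lie at chr13:23581950-23581965 on the plus strand and those of Hist1h1c at chr13:23739512-23739527 on the plus strand (GRCm38). For 16 of the 20 members without the letters the annotated transcript ends within 80 nt of added sequence beyond the coding sequence, so a stem-loop could lie outside the model. Hist2h2be was among the other 4, and its annotated transcript is 2620 nt long.

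Reads inferred from the steps of the TPM values summed to 7776792 to 12771079 per library, lowest in the late cKO library of replicate 2. Mex3a, the deleted gene and an RNA-binding protein, checked the labels. Its early libraries stood at 97.4 and 115.6 TPM in WT (replicates 1 and 2) against 13.9 and 19.8 in cKO, and its late libraries at 93.2 and 95.6 TPM in WT against 11.1 and 13.8 in cKO, and the WT library with the cKO tag was at the WT level. On lysate means Mex3a was lower in cKO by -2.67 (adjusted p = 0.0227, limma). Omp, which marks mature olfactory neurons, ranged from 2438.7 to 5393.0 TPM. The 12 mature olfactory neuron markers listed summed to 7921.3 to 12907.4 TPM. Since the samples are bulk tissue, fewer cells of a type and less RNA per cell cannot be told apart.

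Histone copies resemble each other so closely that counting can mix them. In members with an annotated transcript, a median of 52.3% of the 50-nt windows of a gene were also present in another gene, and 32 of the 58 tested members shared at least 50% of their windows. Windows of Hist1h1a, Hist1h1b, Hist1h1t, Hist2h2bb, Hist2h2be and Hist4h4 were shared with no gene outside their own locus. How the authors counted reads that match several copies is not given in the sources used here, so values of single copies with shared windows are uncertain.

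Together the members made up 3.22% to 3.85% of all TPM in the early libraries and 1.70% to 2.07% in the late libraries. In the early libraries the H4 genes held the largest share of the members' TPM, 34.6% to 37.0%, followed by H2B or H1 in every library. H2B held 20.6% to 23.7% and H1 19.5% to 24.1%, H2A held 12.8% to 13.9%, and H3 held 7.29% to 8.32%. In the late libraries H1 held the largest share, 37.7% to 41.4%, and H4 held 21.8% to 26.8%. Summed TPM of the 6 H1 genes ranged from 6917 to 8202 in early and from 6399 to 8596 in late libraries, ranges that overlap. The 12 H4 genes summed to 11154 to 13659 TPM in early and 4337 to 4636 in late libraries, which do not overlap.

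**Figure D1:**
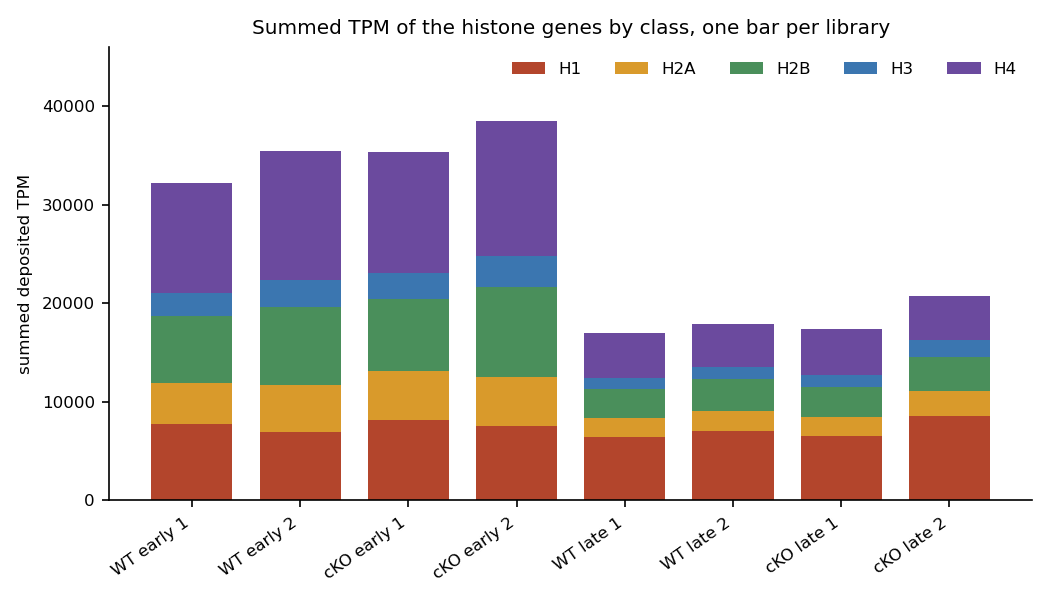
Summed deposited TPM of the histone genes, stacked by class, with 1 bar per library. All 4 late libraries (16994 to 20742 TPM in total) lie below all 4 early libraries (32220 to 38501 TPM), while the H1 segment at the foot of the bars is of similar height in both.

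Late and early polysomes were compared to ask how the level of each histone message, relative to other messages, differed between the 2 pools. TPM sums to the same total in every library. A fall or rise below is therefore relative to other genes and does not measure the amount of RNA in a fraction. Of 58 members tested, 54 were lower and 1 was higher in late than in early polysomes, averaged over WT and cKO, and 3 did not pass the test. Over all 16097 genes tested, 68.9% were called in either direction, 34.6% as lower and 34.3% as higher. The median late-minus-early difference of the members was -1.32 on the log2(scaled TPM + 1) scale, used for all differences below, and that of all genes was -0.011. Late and early libraries did not overlap in 51 members that were lower (background 30.9%) and 1 that was higher (31.5%). The 52 core histone genes all fell, by values from -1.79 to -0.80, and the 6 H1 genes ranged from -0.70 to 0.36. Both ends of the core range came from members with few reads per library, Hist3h2bb-ps (2 to 59) and Hist1h2ba (0 to 6). In WT alone 51 members were lower and 1 was higher (percent called over all genes 54.8, lower 27.7, higher 27.1), and in cKO alone 53 were lower and 0 higher (percent called 58.1, lower 29.2, higher 28.9). The test throughout is limma's moderated test across all genes with Benjamini-Hochberg adjustment and a threshold of 0.05.

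**Figure D2:**
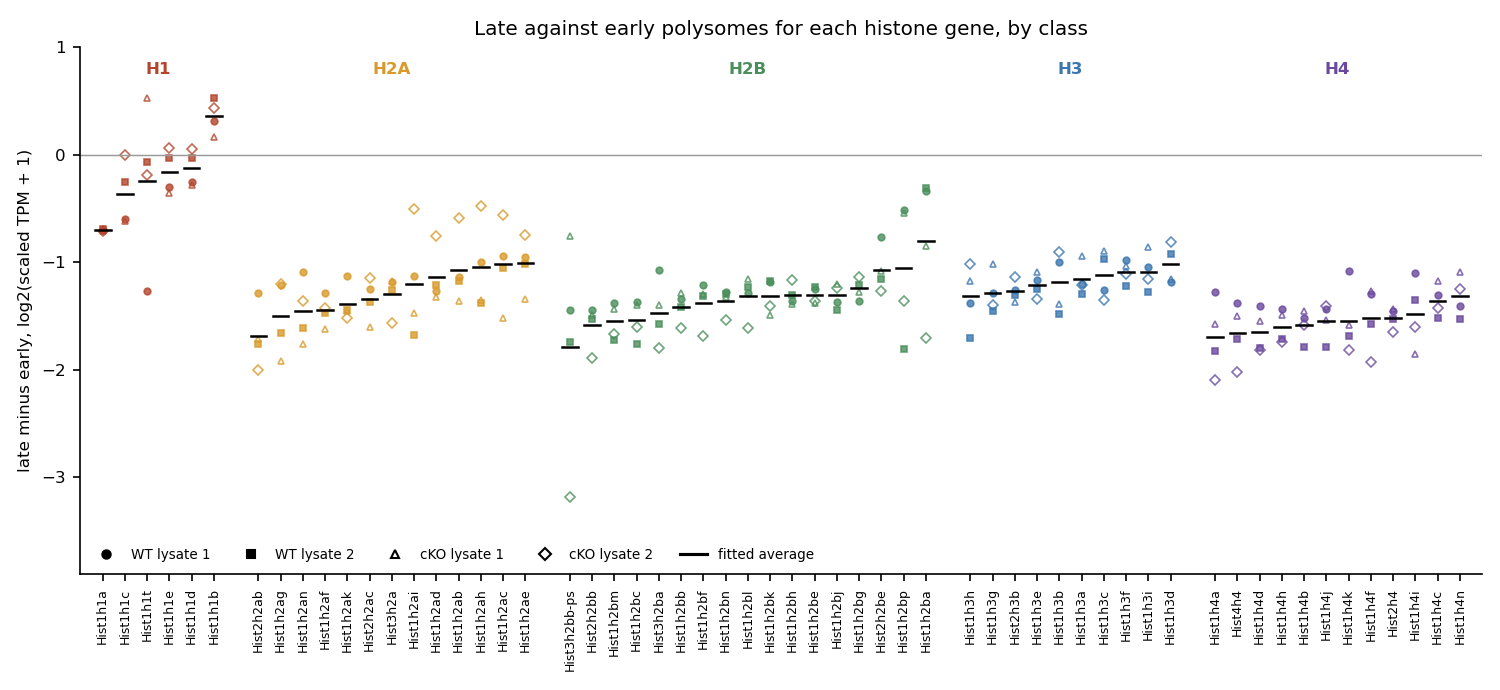
Late-minus-early difference in log2(scaled TPM + 1) for each of the 58 tested members, grouped by class and sorted by the fitted average (black bar); each symbol is 1 lysate, filled for WT and open for cKO. Most core members lie between -1 and -2, the H4 genes lowest as a class, and the H1 genes lie between -0.70 and 0.36 in the fitted average.

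H4, which pairs with H3 at the centre of the nucleosome, showed the largest fall. All 12 H4 genes were lower in late polysomes, by -1.70 to -1.32, and the class median over the 4 lysates was -1.57 ± 0.16 (SD, n = 4 lysates). H4 had the lowest median of the 5 classes in 4 of 4 lysates. Hist1h4d, the most abundant member, stood at 4360.0 and 5047.2 TPM (WT) and 4736.9 and 5130.0 TPM (cKO) in early polysomes, and at 1748.5 and 1577.8 TPM (WT) and 1709.0 and 1633.4 TPM (cKO) in late polysomes, each pair being replicates 1 and 2. Late and early libraries did not overlap, and late polysomes held 28.3% to 37.7% of the early level in the 4 lysates (such percentages are of scaled TPM). Its fitted difference was -1.65 (SE 0.12, adjusted p = 2.18e-05, limma). Hist4h4, the single gene of its cluster and the H4 gene without shared windows, ranged from 1062.8 to 1206.3 TPM in the early libraries and from 332.8 to 434.7 TPM in the late ones, again without overlap. It fell by 1.66 (SE 0.11, adjusted p = 1.88e-05, limma). Hist1h4a fell by 1.70 (SE 0.12) from 430.2 to 605.0 TPM in early to 157.3 to 187.1 TPM in late libraries, the largest fall among the H4 genes. Hist1h4h (-1.60, SE 0.11) and Hist1h4c (-1.36, SE 0.09) fell as well.

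H2B, which pairs with H2A, was lower in late polysomes for 17 of 17 genes (-1.79 to -0.80), with a class median of -1.38 ± 0.15 (SD, n = 4 lysates). The ends of this range are Hist3h2bb-ps and Hist1h2ba, which had few reads. Hist2h2bb, the most abundant H2B gene, stood at 1695.7 and 2219.6 TPM (WT) and 1960.9 and 2939.6 TPM (cKO) in early polysomes, and at 657.1 and 837.1 TPM (WT) and 738.4 and 891.3 TPM (cKO) in late polysomes. The late libraries were below all early ones, at 27.0% to 36.5% of the early level, and the gene fell by 1.59 (SE 0.17, adjusted p = 6.88e-05, limma). It lies inside a long noncoding RNA model on the same strand and opposite an antisense model in GENCODE, so its reads could also be theirs. Hist1h2bb (-1.42, SE 0.10), Hist1h2bn (-1.36, SE 0.08) and Hist1h2bg (-1.24, SE 0.13) fell without overlap as well. Hist2h2be fell by 1.07 (SE 0.09, adjusted p = 3.1e-05), to 41.4% to 58.5% of its early level.

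H2A was lower in late polysomes for 13 of 13 tested genes (-1.69 to -1.01), with a class median of -1.29 ± 0.17 (SD, n = 4 lysates). Hist1h2ak, the most abundant, stood at 676.1 and 787.6 TPM (WT) and 842.6 and 882.1 TPM (cKO) in early polysomes, and at 328.7 and 313.4 TPM (WT) and 323.0 and 345.2 TPM (cKO) in late polysomes. No late library reached an early one, and the gene fell by 1.39 (SE 0.08, adjusted p = 1.88e-05, limma). Hist2h2ab had the largest fall of the class, -1.69 (SE 0.09), from 151.6 to 178.7 TPM in early to 43.2 to 65.3 in late libraries. Hist1h2af (-1.45, SE 0.10), Hist2h2ac (-1.34, SE 0.12) and Hist3h2a (-1.30, SE 0.10) fell too.

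The second cKO lysate stood apart for some H2A genes, named here after their values were seen. Hist1h2ab, Hist1h2ac, Hist1h2ad, Hist1h2ae, Hist1h2ah and Hist1h2ai held 58.3% to 71.4% of their early level in the late polysomes of that lysate and 31.2% to 51.8% in the other 3 lysates. The other 7 tested H2A genes held 24.5% to 44.9% in the same lysate. The 6 genes share 54.0% to 90.7% of their windows with other genes, so they are not 6 separate measurements. Over the whole set, 17 of 58 members differed by more than 0.5 between the 2 late cKO libraries, against 3 or 4 between the replicates of each other group. That late cKO library is also the shallowest; the part of depth in this spread was not tested.

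H3 was lower in late polysomes for 10 of 10 genes (-1.32 to -1.02), with a class median of -1.17 ± 0.10 (SD, n = 4 lysates), the least negative of the core classes in 3 of 4 lysates. Hist1h3b, the most abundant, stood at 546.7 and 641.2 TPM (WT) and 643.5 and 660.4 TPM (cKO) in early polysomes, and at 290.3 and 250.5 TPM (WT) and 258.9 and 395.8 TPM (cKO) in late polysomes. The late libraries lay below the early ones, and the gene fell by 1.19 (SE 0.13, adjusted p = 8.29e-05, limma). Hist1h3e (-1.21, SE 0.10), Hist1h3c (-1.12, SE 0.14) and Hist1h3d (-1.02, SE 0.17) fell too. Across lysates the medians of H2A, H2B and H3 overlapped, and those of H4 (-1.71 to -1.39) overlapped those of H2A and H2B. Differences between classes were not tested.

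H1, which binds the linker DNA between nucleosomes, gave both directions. Of 6 genes, 1 was higher, 2 were lower and 3 did not pass the test, and H1 had the highest median of the 5 classes in 4 of 4 lysates (-0.20 ± 0.22, SD, n = 4 lysates). Hist1h1b stood at 567.9 and 515.9 TPM (WT) and 653.5 and 580.3 TPM (cKO) in early polysomes, and at 747.0 and 811.5 TPM (WT) and 776.3 and 877.5 TPM (cKO) in late polysomes. Every late library was above every early one, at 112.1% to 144.0% of the early level of its lysate. Hist1h1b was the 1 member that rose, by 0.36 (SE 0.08, adjusted p = 0.00505, limma). Hist1h1a, described because it was the other clear H1 call and chosen after its values were seen, stood at 586.7 and 617.2 TPM (WT) and 648.5 and 693.7 TPM (cKO) in early polysomes, and at 382.2 and 417.1 TPM (WT) and 420.4 and 476.3 TPM (cKO) in late polysomes. Its late libraries held 61.1% to 61.9% of the early level and it fell by 0.70 (SE 0.08, adjusted p = 9.27e-05, limma). Neither of these genes shares windows with another gene.

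The most abundant H1 genes gave smaller differences. Hist1h1c stood at 2825.0 and 2397.9 TPM (WT) and 2890.7 and 2616.8 TPM (cKO) in early polysomes, and at 1980.5 and 2189.9 TPM (WT) and 1995.6 and 2940.0 TPM (cKO) in late polysomes. On TPM as deposited, the late cKO library of replicate 2 was above all early libraries and the other late ones were below them. On scaled TPM that library held 100.0% of the early level of its lysate. Hist1h1c passed with a difference of -0.37 (SE 0.14, adjusted p = 0.0472, limma), and the call did not hold with TPM as deposited (adjusted p = 0.164) or with quantile normalization (0.737); it held in 4 of 15 alternatives, whose adjusted p ranged from 0.00514 to 0.737. Hist1h1e differed by -0.16 (SE 0.12, adjusted p = 0.282) and Hist1h1d by -0.13 (SE 0.10, adjusted p = 0.285), neither past the threshold. With quantile normalization the direction of these 2 genes turned, to 0.24 and 0.06. Hist1h1t, a testis H1 gene, rested on 4 to 18 reads per library and differed by -0.25 (SE 0.28, adjusted p = 0.45). Hist1h1a and Hist1h1b moved in opposite directions in 4 of 4 lysates.

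**Figure D3:**
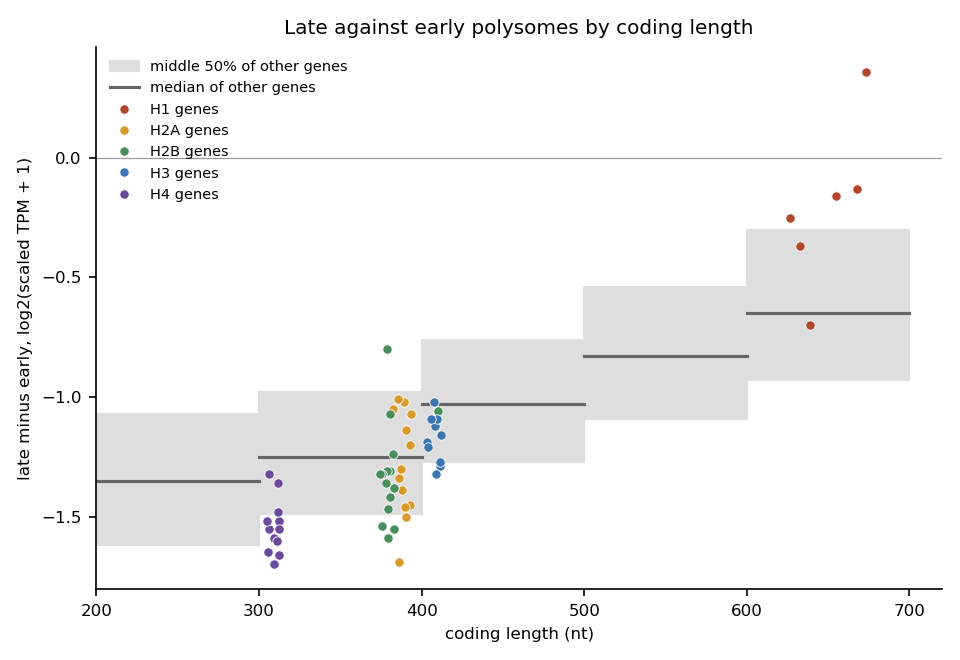
Late-minus-early difference against the coding length in GENCODE M21, 1 point per tested member with a coding sequence, coloured by class and shifted sideways at random by up to 5 nt. Grey bands give the middle 50% and grey lines the median of the other tested genes in steps of coding length up to 700 nt, the first step drawn from 200 nt. H4 genes lie at the foot of the plot at 309 nt and 4 of 6 H1 genes lie above the band at 600 to 700 nt. Hist1h1t, which rested on 4 to 18 reads per library, is among these H1 genes.

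The classes were ordered by coding length. Median coding lengths were 309 nt for H4, 378 nt for H2B, 390 nt for H2A, 408 nt for H3 and 648 nt for H1. Longer reading frames can hold more ribosomes, so the same relation was described for all genes. Over the 57 tested members with a coding length, Pearson's r between length and the late-minus-early difference was 0.90 (Spearman's rho 0.759), and over the 51 core members 0.619 (rho 0.661). These points share libraries, windows and class, and the values are a description across genes. Among the 14630 other tested genes with a coding length, rho was 0.63. The median difference of those genes was -1.25 at 300 to 400 nt (middle 50% from -1.49 to -0.98), -1.03 at 400 to 500 nt (-1.27 to -0.76) and -0.65 at 600 to 700 nt (-0.93 to -0.30). Against genes of the same step, 12 of 12 H4, 13 of 16 H2B, 7 of 13 H2A and 9 of 10 H3 genes lay below the median. Of the H4 genes, 9 lay below the lower quartile, although at 309 nt they stand at the short end of their step. The H3 genes, at 408 nt, also stand at the short end of theirs. The median of their fitted differences, -1.18, lay above the -1.25 of other genes at 300 to 400 nt. The H2B and H2A median lengths of 378 and 390 nt lie at the long end of that step. Of 6 H1 genes, 5 lay above the median of their step and 4 above the upper quartile. Hist1h1t was among these 4, at -0.25 (SE 0.28) on only 4 to 18 reads per library.

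Across the clusters the median difference was -1.31 over 48 tested Hist1 genes (44 lower, 1 higher), -1.43 over 6 Hist2 genes (6 lower), -1.47 over 3 Hist3 genes (3 lower) and -1.66 for the Hist4 gene. All 6 H1 genes lie in Hist1. For H2A the medians were -1.17 in Hist1 (10 genes) and -1.52 in Hist2 (2 genes), and for H4 they were -1.55 in Hist1 (10 genes), -1.52 for the Hist2 gene and -1.66 for the Hist4 gene. Hist1 itself splits into a stretch of 18 genes at chr13:21715763-22043676 and one of 31 genes at chr13:23531050-23934851. Core members fell in both, with medians of -1.32 and -1.29 in the first and second stretch. These differences between clusters were not tested.

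Members at the edges of expression were few. Hist3h2bb-ps, a processed pseudogene in Hist3, had a fitted difference of -1.79 on 2 to 59 reads per library, with a wide error (SE 0.43, adjusted p = 0.00557, limma). The value was -1.19 without cKO late replicate 2 and -2.38 without cKO late replicate 1, and single lysates ran from -3.19 to -0.76, so its place as the most negative of all members rests on cKO late replicate 2. It reached at most 26.4 TPM in early libraries and stood at 1.59 to 12.3 TPM in late ones. The neighbouring Hist3h2ba, which shares windows with 1 gene, fell by 1.47 (SE 0.13). Hist1h2ba, a testis H2B gene, had 0 to 6 reads per library and a difference of -0.80 (SE 0.31, adjusted p = 0.0438) that passed in 4 of 14 alternatives. Hist1h2aa, a testis H2A gene, was listed at 0 in 7 libraries and at 0.921 TPM in the WT early library of replicate 2.

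Core genes with and without the stem-loop letters in the annotated transcript gave similar values. Of all 20 members without the letters, 16 have annotated transcripts that end within 80 nt of added sequence beyond the coding sequence. The split therefore cannot compare messages with and without a stem-loop. Medians over lysates were -1.35 ± 0.07 for the 35 core members with the letters and -1.40 ± 0.11 for the 17 without (SD, n = 4 lysates). Core members with at least 50% of windows shared (32 genes) had a median of -1.28 ± 0.07 and those with fewer (20 genes) -1.49 ± 0.17. The median of each of these groups was below 0 in 4 of 4 lysates.

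Variant histones, whose messages mostly carry poly(A) tails and are made outside S phase as well, give a comparison. Of 11 listed, 9 fell and 1 rose, with a median of -1.04. H3f3b, an H3 variant gene, stood at 1719.7 and 1820.3 TPM (WT) and 1765.2 and 1811.4 TPM (cKO) in early polysomes, and at 937.0 and 836.8 TPM (WT) and 887.5 and 925.7 TPM (cKO) in late polysomes, and fell by 1.11 (SE 0.09, adjusted p = 2.92e-05, limma). H2afz, an H2A variant gene, fell by 1.53 (SE 0.10), and H1f0, a linker variant of resting cells, was at -0.77 (SE 0.07, adjusted p = 4.38e-05). H2afy2, a macroH2A gene with a longer reading frame, rose by 0.58 (SE 0.06). Thus most variant genes, like the core members, were lower in late polysomes.

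Genes that make, process and degrade histone messages were more often higher than lower in late polysomes. Of 26 listed, 15 rose and 7 fell in late polysomes, with a median of 0.44. Over all genes tested, 34.3% rose and 34.6% fell. Slbp stood at 57.6 and 46.3 TPM (WT) and 51.4 and 38.7 TPM (cKO) in early polysomes, and at 101.7 and 108.2 TPM (WT) and 93.3 and 113.8 TPM (cKO) in late polysomes, and rose by 0.98 (SE 0.11, adjusted p = 8.29e-05, limma). Upf1, a helicase of histone message decay, rose by 1.12 (SE 0.13), Sympk and Cpsf3, of the 3′ cleavage machinery, by 1.29 (SE 0.11) and 0.78 (SE 0.06), and Npat, the activator of histone transcription, by 0.49 (SE 0.10). Lsm4, a subunit of the Lsm ring that takes part in decay, fell by 1.41 (SE 0.11), and Eri1, the exonuclease that trims the stem-loop, was at -0.84 (SE 0.09, adjusted p = 7.85e-05). Of 49 genes of DNA replication and S phase, 26 rose and 10 fell, with a median of 0.34. Among tested genes outside the members, the median was -1.35 at coding lengths up to 300 nt and 0.41 at 2000 to 3000 nt. The part of coding length in the values of both lists was not tested.

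Promoters of the members, H1 included, are described as a trait of the gene sequence. No relation of promoter motifs to the polysome values was tested. RefSeq promoters (250 bases before to 50 after the start, GRCm38.p6) were at hand for 53 members, and motifs were searched on both strands. A gene was counted once if any of its promoters held the letters. CCAAT stood in promoters of 45 of 53 members (84.9%), against 41.1% of 27025 genes with a promoter. Among members with a promoter at hand, it stood in those of all 6 H1, 14 H2A, 14 H2B and 8 H3 members and of 3 of 11 H4 members. TATAAA stood in promoters of 62.3% of members against 15.7% of all genes with a promoter. ATTTGCAT, the octamer letters, stood in promoters of 7 of 14 H2A and 7 of 14 H2B members and of 0 of 25 of the other classes. It stood in those of 2.0% of all genes with a promoter. Some H2A and H2B members lie head to head, such as Hist1h2ae and Hist1h2bg, so 1 site may be counted for both. The 120 bases before the start are shown for the most abundant H2B and H4 genes, with the letters of these motifs (or of their reverse complement) in capitals, at chr3:96269580-96269699 and chr13:23581448-23581567, both on the plus strand.
Hist2h2bb: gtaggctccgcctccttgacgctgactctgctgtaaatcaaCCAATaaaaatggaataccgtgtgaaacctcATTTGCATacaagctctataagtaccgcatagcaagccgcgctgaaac
Hist1h4d: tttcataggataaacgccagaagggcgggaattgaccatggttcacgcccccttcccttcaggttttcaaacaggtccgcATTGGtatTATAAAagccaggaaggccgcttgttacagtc
The octamer letters of Hist2h2bb are the kind found only among H2A and H2B members here; a match is a description of the sequence.

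To ask what differs with the loss of Mex3a, cKO was compared with WT in each fraction and on lysate means, the average over both fractions of a lysate. No member passed the test in any of them: 0 of 58 in early polysomes (percent called over all genes 0.0435), 0 in late polysomes (0.0124) and 0 in lysate means (0.00621). Voom on inferred reads also called 0 in each. The differences leaned one way: cKO was above WT for 52 of 58 members in early, 47 in late and 51 in lysate means, against 51.2%, 49.7% and 50.4% of all genes tested. The medians were 0.21, 0.19 and 0.20, against 0.005, -0.001 and 0.001 for all genes. Without adjustment, 9 members had p under 0.05 in early (background 6.64%), 13 in late (9.36%) and 21 in lysate means (11.3%), 19 of these higher and 2 lower in cKO (background 6.09% and 5.24%). Early and late comparisons use libraries of the same lysates.

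Single libraries moved the size of these medians. The early median of 0.21 was 0.12 without WT early replicate 1, 0.13 without cKO early replicate 2 and 0.33 without WT early replicate 2, the library with the contrary genotype tag. The late median of 0.19 was 0.08 without cKO late replicate 2 and 0.31 without cKO late replicate 1. On lysate means the median of 0.20 was 0.11 without the second cKO lysate. It stayed above 0 in each of these fits.

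**Figure D4:**
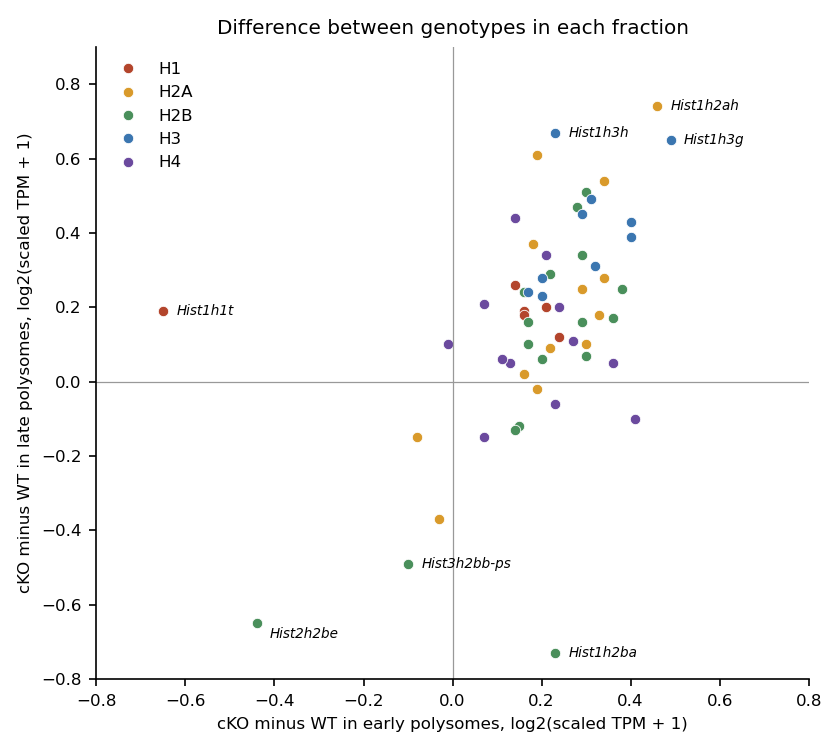
Difference between cKO and WT in log2(scaled TPM + 1) for each tested member, in early polysomes (x axis) and late polysomes (y axis), coloured by class. Most points lie above 0 on both axes, with the H3 genes between 0.17 and 0.67, and Hist2h2be lies at -0.44 and -0.65; none passed the test.

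By class, H3 had the largest medians, 0.30 in early, 0.41 in late and 0.38 in lysate means, with 10 of 10 genes above 0 in each. H2A gave 0.22, 0.18 and 0.26, H2B 0.22, 0.16 and 0.18, H1 0.16, 0.19 and 0.18, and H4 0.18, 0.08 and 0.15. Hist1h3h stood at 75.2 and 87.9 TPM (WT) and 97.8 and 85.9 TPM (cKO) in early polysomes, and at 30.0 and 28.6 TPM (WT) and 45.3 and 47.1 TPM (cKO) in late polysomes. In late polysomes both cKO libraries were above both WT libraries, by 0.67 (SE 0.11, adjusted p = 0.197, limma), which did not pass. Hist1h3g stood at 70.0 and 80.4 TPM (WT) and 86.7 and 118.6 TPM (cKO) in early polysomes, and at 29.8 and 31.2 TPM (WT) and 45.0 and 49.7 TPM (cKO) in late polysomes. Its groups did not overlap in either fraction, and its difference in lysate means was 0.57 (SE 0.11, adjusted p = 0.31, limma). Hist1h2bj, without overlap in either fraction as well, differed by 0.38 in lysate means (SE 0.09, adjusted p = 0.356). Hist1h3g and Hist1h3h share 57.3% and 93.9% of their windows with other genes, and members with at least 50% shared had a lysate-mean median of 0.28 (32 of 32 above 0) against 0.11 (19 of 26) for the rest.

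On scaled TPM, both cKO libraries were above both WT libraries in 25 members in early polysomes (19.6% of all genes tested) and 24 in late polysomes (20.5%), and below them in 3 (17.6%) and 2 (20.1%). In 14 of 58 members (24.1%) they were above in each fraction, against 6.57% of all genes tested. On TPM as deposited, a comparison added after the data were seen, 8 members (13.8%) were above in each fraction, against 4.24% of all genes. The 14 were 3 H1 genes (Hist1h1a, Hist1h1b and Hist1h1d), Hist1h2ad, Hist1h2af, Hist1h2ah and Hist1h2ak of H2A, Hist1h2bf and Hist1h2bj of H2B, and Hist1h3a, Hist1h3c, Hist1h3e, Hist1h3g and Hist1h3h of H3. Of these, Hist1h1b, Hist1h1d, Hist1h2af, Hist1h2ak, Hist1h2bf and Hist1h3h overlapped in at least 1 fraction as deposited. No H4 gene was among the 14. All 14 lie in Hist1, where 46 of 48 tested genes were above 0 in lysate means, against 3 of 6 in Hist2, 2 of 3 in Hist3 and 0 of 1 in Hist4.

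Hist2h2be was the 1 member lower in cKO without overlap in both fractions, against 6.67% of all genes on scaled TPM and 9.96% as deposited. It encodes the H2B variant of olfactory sensory neurons and lies at chr3:96221119-96223738 on the plus strand. It stood at 566.9 and 602.4 TPM (WT) and 385.6 and 443.5 TPM (cKO) in early polysomes, and at 352.5 and 293.6 TPM (WT) and 192.9 and 206.2 TPM (cKO) in late polysomes, on 1456 to 7576 reads. Each cKO library was below both WT libraries of its fraction. The difference was -0.44 in early (SE 0.13, adjusted p = 0.671), -0.65 in late (SE 0.13, adjusted p = 0.29) and -0.54 in lysate means (SE 0.08, adjusted p = 0.199, limma), none past the threshold. Mature olfactory neuron markers had a median of -0.09 in lysate means, with 1 of 12 above 0 and 0 called, and summed to 10675.1 to 12907.4 TPM in WT early against 11047.0 to 11442.6 in cKO early, and 9032.5 to 9648.1 in WT late against 7921.3 to 8646.7 in cKO late; their part in the difference of Hist2h2be was not tested.

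**Figure D5:**
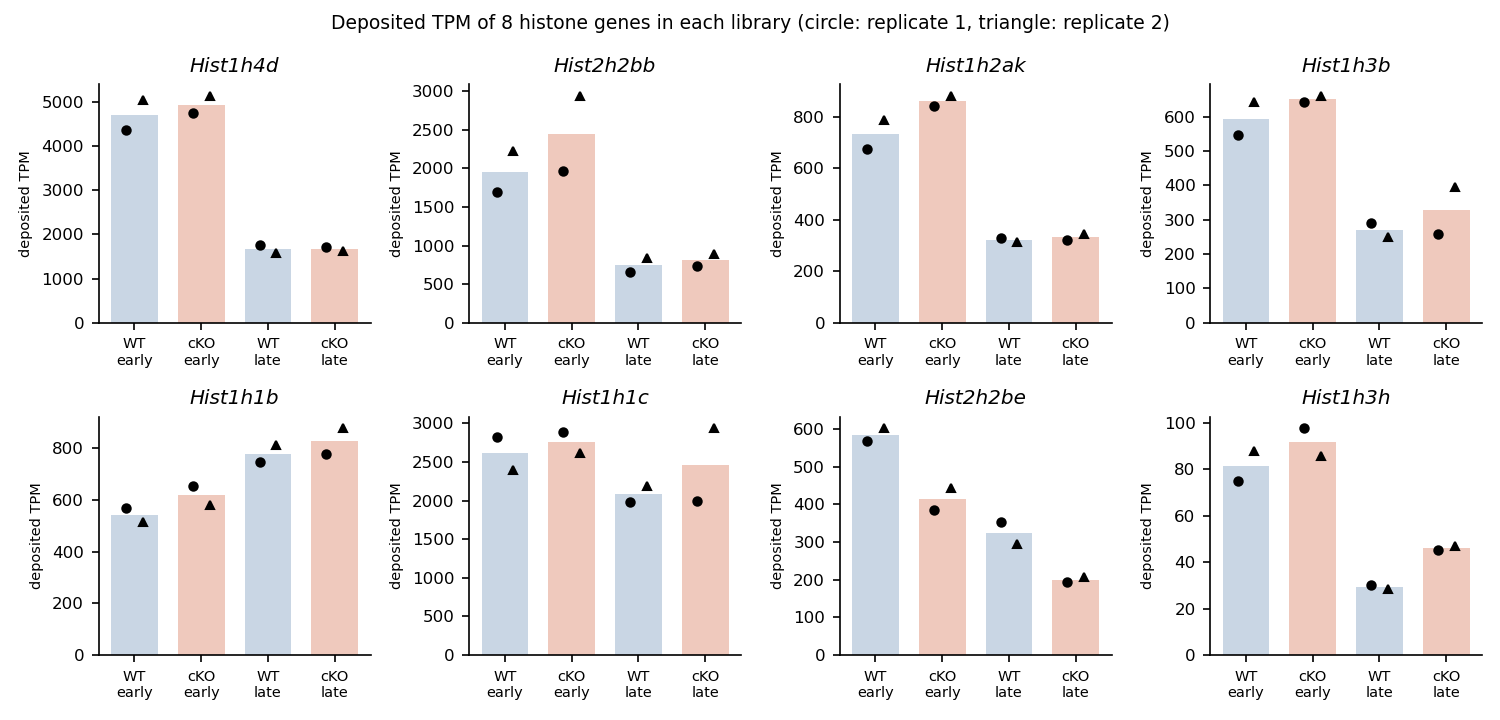
Deposited TPM of 8 members in each library (circles for replicate 1, triangles for replicate 2), with bars at the mean of the 2 libraries. Hist1h4d, Hist2h2bb, Hist1h2ak and Hist1h3b are lower in all late libraries, Hist1h1b is higher, and Hist2h2be is lower in both cKO libraries of each fraction.

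Other lists were set beside these differences. The 49 replication and S phase genes had medians of 0.01 in early, 0.02 in late and 0.03 in lysate means, with 0 called, and summed to 1315.8 to 1361.2 TPM in WT early, 1256.1 to 1365.9 in cKO early, 1695.0 to 1722.4 in WT late and 1635.0 to 1669.3 in cKO late. Basal progenitor markers had medians of 0.08, 0.06 and 0.03, with 0 of 10 called. Genes of histone message processing and decay had medians of -0.11, -0.09 and -0.08, with 0 of 26 called; Slbp differed by -0.07 in lysate means (SE 0.07, adjusted p = 0.751). Variant histones had medians of 0.14, 0.09 and 0.11, with 0 of 11 called. Of 13 immune cell markers 12, 11 and 12 were above 0, with medians of 0.23, 0.22 and 0.28 and 0 called. They summed to 567.6 to 572.9 TPM in WT early against 654.0 to 742.5 in cKO early, and 683.2 to 728.0 in WT late against 769.4 to 978.5 in cKO late. Of 7 erythroid markers 3 were in the table, with a median of 0.32 in lysate means and 0 called, at 47.7 to 57.6 TPM in sum in WT early against 67.0 to 67.5 in cKO early. Immature olfactory neuron markers had medians of -0.18, -0.12 and -0.18, sustentacular cell markers -0.16, 0.01 and -0.07, and horizontal basal cell markers 0.02, 0.11 and 0.04, with 0 called in each. No gene of these lists in the table was at 0 in all libraries, and the part of such cells in the histone values was not tested.

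The late-minus-early difference was compared between genotypes by the interaction. No member passed (percent called over all genes 0.00621), 1 of 58 had p under 0.05 without adjustment (background 2.85%), and voom called 0. Of 58 members 25 were above 0 (48.9% of all genes), with a median of -0.02. The member with the smallest p was Hist1h3h, at 0.45 (SE 0.16, adjusted p = 1.0, limma). Hist2h2be gave -0.21 (SE 0.18), Hist2h2ab -0.34 (SE 0.18) and Hist1h2ba, on its few reads, -0.95 (SE 0.61). By class the medians were 0.03 for H1, -0.07 for H2A, -0.14 for H2B, 0.08 for H3 and -0.07 for H4.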

How the data were processed

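The authors deposited 1 table of TPM for 21765 gene symbols in 8 libraries. Per the submitters' processing notes, FastQC, cutadapt, STAR, DESeq2 and the build mm10 (GRCm38) were used; versions, annotation and counting are not given in the sources used here. The Cre line is not reported here. Libraries were put on 1 scale with median-ratio factors (0.9313 to 1.062). The 16097 genes whose deposited TPM averaged 1 or more were fitted as log2(scaled TPM + 1) with limma 3.58.1 in R 4.3.3, with a mean-variance trend and all 4 groups together; genotype was also fitted on lysate means (2 WT and 2 cKO lysates). P-values are two-sided and adjusted over all genes (7 comparisons). The pseudocount understates changes of low genes. Whole reads were inferred from TPM steps for 19783 genes (100% of those above 0 in 2 or more libraries, tolerance 0.001). They give the likely depth and served voom; the scripts were tested on simulated data. Errors cover the spread between libraries.

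Members and lists were chosen with earlier results of these data known, and those earlier results are no independent support. Named members were the 4 most abundant of each class, the 3 largest rises and falls, those of smallest p by genotype, and members of known special expression or cluster. Library names pair early and late libraries of a lysate; their deviations from group means correlated at 0.0862 in WT and 0.0502 in cKO. Alternatives were a pseudocount of 0.1, no filter or a stricter one (TPM averaging 5 or more), quantile normalization, unscaled TPM, voom, leaving out each library, replicate blocks and only the 4 libraries compared. Sequences came from GENCODE M21 transcripts and RefSeq promoters. Figures were drawn with matplotlib 3.10.9.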

Additional observations from a re-analysis of the deposited data

How the results depend on the processing

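Counts of members called from early to late polysomes kept within 1.5 times under every alternative, from 53 to 54 (averaged), 47 to 53 (WT) and 48 to 53 (cKO) when single libraries were left out. With a replicate block for the lysate the averaged count was 54. Genotype and interaction counts were 0 under every alternative except 1: on lysate means, with the replicate number as a block, 4 members passed (Hist1h2ah, Hist1h3a and Hist1h3g higher and Hist2h2be lower in cKO, 82 genes in all). WT and cKO libraries share only a number: the correlation of their deviations was 0.331 (early) and 0.142 (late), over 2 pairs each. Leaving out libraries gave 0 to 0 members.

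Class medians moved by more than the spread between lysates with quantile normalization (H2A -1.07, H3 -1.01, H4 -1.37) and, for H3, with TPM as deposited (-1.06); the cause was not tested. Without single libraries they ranged from -0.30 to -0.11 (H1), -1.40 to -1.21 (H2A), -1.41 to -1.27 (H2B), -1.25 to -1.10 (H3) and -1.64 to -1.47 (H4). Of single genes, 3 that passed no test changed sign: Hist1h1e (0.24) and Hist1h1d (0.06) from early to late with quantile normalization, and the Hist1h3g interaction, which ranged from -0.07 to 0.41 without single libraries. With 2 libraries a group, small differences between genotypes could be missed.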
